A study of Mus musculus with 9 samples.

Results

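The genes described here are 6 of those that act on or sense extracellular ATP and adenosine: Entpd1 (CD39), Nt5e (CD73), the adenosine receptor genes Adora2a and Adora2b, Ada (adenosine deaminase) and P2rx7 (the ATP receptor P2X7). They are listed by name for their place in this pathway, and the list was drawn up with earlier results of these data known. They are 6 of the 23366 genes in the deposited table. Of the 6, 5 had a mean of at least 1 FPKM (fragments per kilobase of transcript with the library scaled for depth) over all libraries and were tested with 10374 genes in all. Adora2b lay below that mean. RNA was sequenced from bulk CD8+ T cells of B16F10 tumours, a transplantable melanoma, grown in C57BL/6 mice. The 5 WT libraries came from wild-type mice and the 4 IL27ra KO libraries from mice with a disrupted interleukin 27 receptor gene. Both groups carried the same tumour, and no drug or other treatment is named for either. The age of the mice, the way the cells were isolated, the disrupted part of the gene and whether the disruption was limited to some cells are not given in the labels or other sources used here.

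Cells release ATP when they are stressed or die, and ATP is plentiful in tumours. CD39 on the cell surface removes phosphates from ATP and ADP to give AMP, and CD73 turns AMP into adenosine. Adenosine acts on receptors that raise cyclic AMP in T cells and dampen their activation, while ADA breaks adenosine down and ATP that is not degraded can open the channel P2X7. In tumours, CD39 is known as a marker of T cells that have met their antigen for a long time, and CD39 and P2X7 are also carried by macrophages.

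CD39 RNA fell and P2X7 RNA rose in IL27ra KO libraries, each with no overlap between the groups, while CD73, Adora2a and Ada did not pass the test. The mean of Entpd1 in WT was 2.27 times its mean in IL27ra KO, and the mean of P2rx7 in IL27ra KO was 3.35 times its mean in WT. So 1 of the 5 tested members was higher and 1 was lower, beside 3.13% of all genes tested that were higher, 1.11% that were lower and 4.24% that changed in either direction (limma, adjusted p under 0.05). The median log2 difference of the 5 members was 0.02, the same as the 0.02 of all genes tested. For 2 of the 5 members the values of WT and IL27ra KO did not overlap, beside 6.73% of all genes tested. Nothing in the labels ties each library to its own mouse, so p-values measure the spread between libraries, which may be technical.

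**Figure D1:**
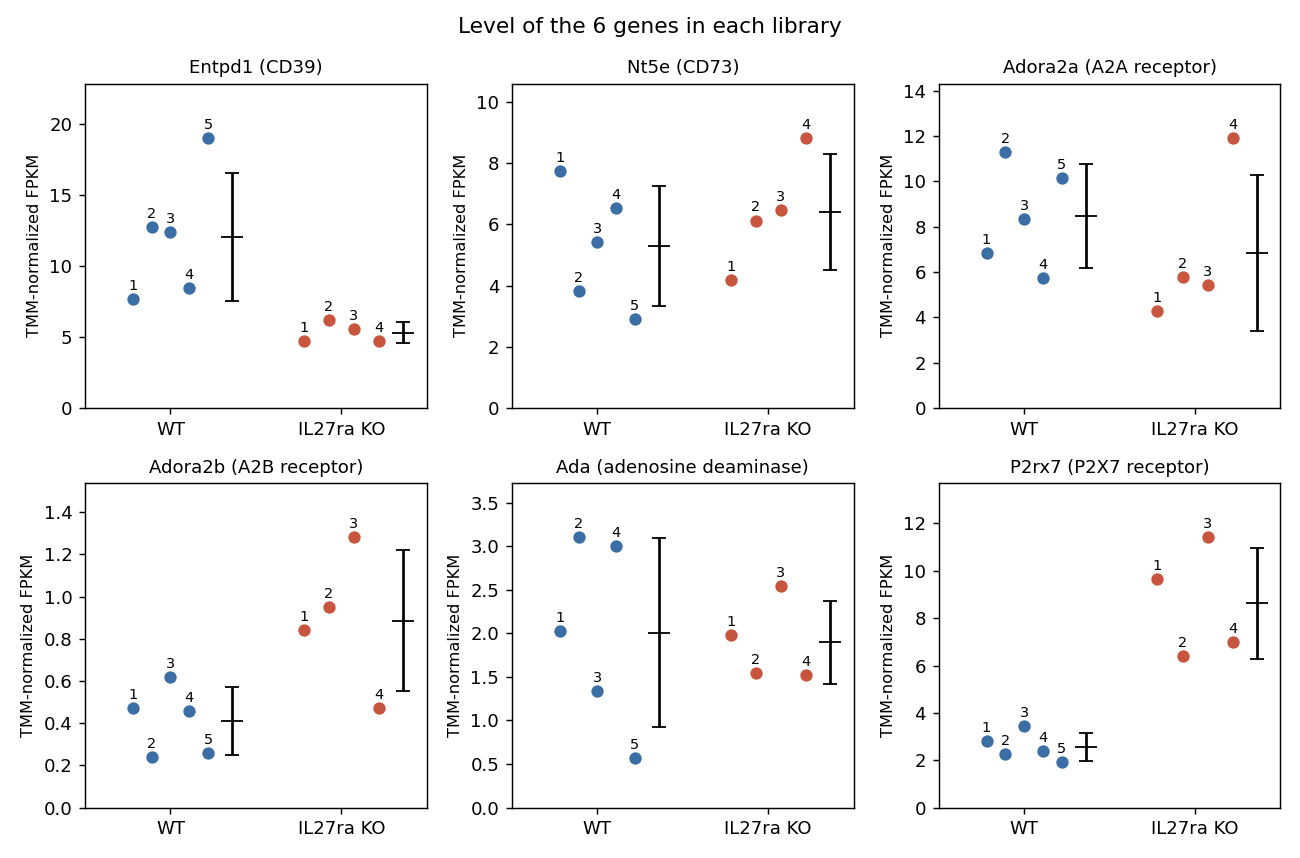
Level of the 6 genes in FPKM (vertical axes, each starting at 0) in every library of both groups, with 1 point per library and the group mean and SD. All 5 WT points lie above all 4 IL27ra KO points for Entpd1 and below them for P2rx7, and the groups overlap for Nt5e, Adora2a, Adora2b and Ada.

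The libraries limit how finely these values can be read. Rn45s, the ribosomal RNA precursor, made up 53.8% and 50.8% of the summed FPKM in WT replicates 3 and 4. It made up 30.0%, 30.0% and 23.9% in WT replicates 1, 2 and 5, and 25.2% to 29.3% in IL27ra KO libraries. About 2000 cells were lysed on average for each library, and the spacing of low FPKM values implied 1740000 to 4080000 fragments per WT library and 2500000 to 3830000 per IL27ra KO library. Under that estimate the value of Entpd1 in a library rests on 58.3 to 327 fragments, Nt5e on 34.5 to 122, Adora2a on 34.1 to 107, P2rx7 on 25.2 to 183 and Ada on 3.92 to 12.8. These numbers take the longest annotated transcript of each gene as its length, and shorter transcripts would give fewer fragments. Il27ra, the targeted gene, checks the labels. It had 25.74, 5.14, 15.24, 14.43 and 15.79 FPKM in WT replicates 1 to 5 and 4.09, 6.50, 5.62 and 7.80 FPKM in IL27ra KO replicates 1 to 4. The library labelled WT replicate 2 therefore lay within the IL27ra KO range, and the difference did not pass (log2 difference -1.10, limma, adjusted p = 0.0996). Il27ra passed without that library (-1.42, limma, adjusted p = 0.0035), with the robust fit (-1.20, limma, adjusted p = 0.00061) and with library quality weights (-1.42, limma, adjusted p = 0.0012). It passed under no other setting and with no other library left out (limma, adjusted p = 0.0633 to 0.749). WT replicate 2 was picked out by its Il27ra value, so the result without it was nearly fixed in advance. The robust fit and the weights can likewise lower the part of an outlying value or library. Without WT replicate 2 both member calls held, at -0.96 for Entpd1 (limma, adjusted p = 0.0475) and 1.38 for P2rx7 (limma, adjusted p = 0.0032).

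Entpd1 encodes CD39, the enzyme that starts the breakdown of extracellular ATP. It had 7.64, 12.70, 12.37, 8.43 and 19.01 FPKM in WT replicates 1 to 5, and 4.69, 6.21, 5.53 and 4.73 FPKM in IL27ra KO replicates 1 to 4. Every WT library lay above every IL27ra KO library, and the WT libraries were much more spread, with WT replicate 5 the highest and WT replicate 1 the nearest to the IL27ra KO values. The means were 12.03 ± 4.51 FPKM in WT (SD, n = 5) against 5.29 ± 0.725 FPKM in IL27ra KO (SD, n = 4). On the log2(FPKM + 1) scale, which understates changes of low genes, Entpd1 fell by 0.99 (SE 0.24, 95% interval -1.51 to -0.47; limma, adjusted p = 0.0327). The two-sided exact permutation p was 0.0159, the smallest that 126 splits of 9 libraries allow. This fall sat close to the threshold: leaving out any of 6 of the 9 libraries, WT replicate 3 or 5 or any IL27ra KO replicate, ended the call (log2 difference -0.82 to -1.06, limma, adjusted p = 0.0607 to 0.119). Scaling every library to the same CD8 T cell identity level gave -0.37 (limma, adjusted p = 0.353), and the median of all genes moved to 0.60. This scaling multiplies all genes of a library by the same factor, so nearly all differences move alike. The distance of Entpd1 below the median, 0.97 against 1.01 without the scaling, was thus nearly fixed in advance and tests nothing.

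P2rx7 encodes the ATP-gated channel P2X7, which opens at high extracellular ATP, leads to inflammasome activation in macrophages and can kill T cells on prolonged opening. C57BL/6 mice are known to carry a P2X7 variant with reduced activity, and RNA levels do not measure channel activity. P2rx7 had 2.83, 2.26, 3.46, 2.39 and 1.92 FPKM in WT replicates 1 to 5. In IL27ra KO replicates 1 to 4 it had 9.66, 6.42, 11.41 and 7.01 FPKM. The lowest IL27ra KO library thus lay well above the highest WT library, and the WT values stayed within a narrow range. The means were 2.57 ± 0.594 FPKM (SD, n = 5) against 8.63 ± 2.33 FPKM (SD, n = 4). P2rx7 rose by 1.41 on the log2(FPKM + 1) scale (SE 0.21, 95% interval 0.96 to 1.87; limma, adjusted p = 0.0020, with a two-sided exact permutation p of 0.0159). No library decided this rise: without each library in turn the difference was 1.28 to 1.53, with limma adjusted p of 0.0017 to 0.0117.

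**Figure D2:**
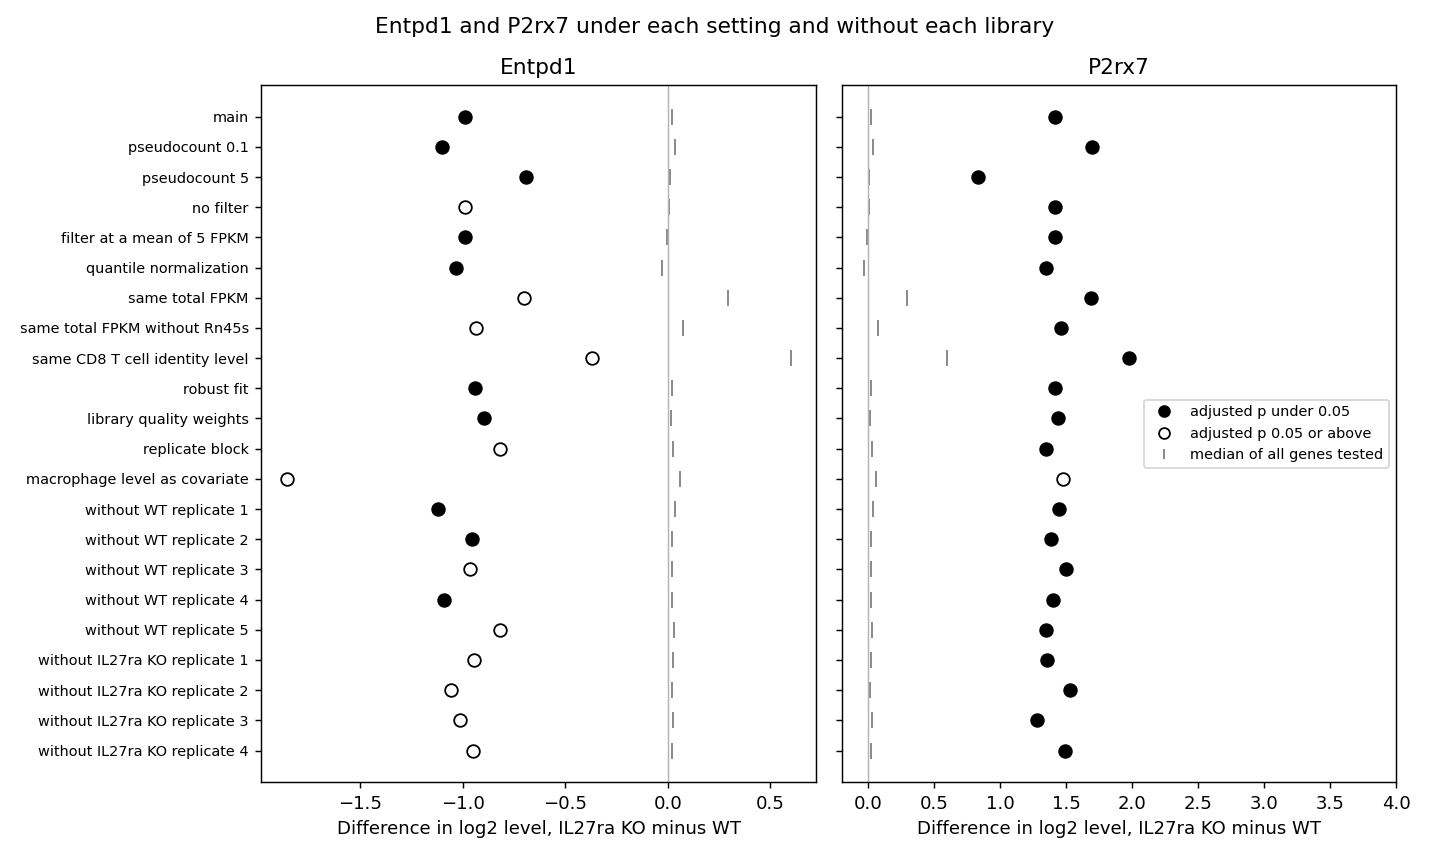
Difference in log2 level, IL27ra KO minus WT (horizontal axes), of Entpd1 and P2rx7 under each setting of the analysis and without each library (vertical axis), with filled points for an adjusted p under 0.05, open points otherwise and ticks for the median of all genes tested. Entpd1 stayed below 0 under every setting shown but lost its call under 12 of them, while P2rx7 lost its call only with the macrophage level as a covariate.

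The start of each gene is shown for these 2 members because they are the ones that moved. Each line gives the 250 bases before an annotated RefSeq start in GRCm38.p6, 5′ to 3′ on the + strand; the expression values come from the older build mm9, and no binding or methylation was measured at these sites. Capitals mark matches on either strand to 1 of 5 motifs: the STAT site GAS (TTCNNNGAA), the cyclic AMP response element CRE (TGACGTCA), its shorter core (TGACG, which the full CRE contains), the core of the xenobiotic response element XRE (GCGTG) and the AP-1 site (TGANTCA). The AP-1 site was added after the sequences had been seen.
Entpd1 window 1, chr19:40612116-40612365: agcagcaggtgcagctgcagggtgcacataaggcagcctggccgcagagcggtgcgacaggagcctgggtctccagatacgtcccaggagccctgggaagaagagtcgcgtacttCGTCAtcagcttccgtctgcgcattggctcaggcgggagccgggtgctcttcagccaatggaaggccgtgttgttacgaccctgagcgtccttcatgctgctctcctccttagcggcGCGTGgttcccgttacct
Entpd1 window 2, chr19:40659520-40659769: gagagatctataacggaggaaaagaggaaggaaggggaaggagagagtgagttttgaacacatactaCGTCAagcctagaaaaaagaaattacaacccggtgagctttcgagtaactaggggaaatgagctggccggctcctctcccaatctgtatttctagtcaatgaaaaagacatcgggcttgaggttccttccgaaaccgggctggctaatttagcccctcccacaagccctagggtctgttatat
P2rx7 window 1, chr5:122643677-122643926: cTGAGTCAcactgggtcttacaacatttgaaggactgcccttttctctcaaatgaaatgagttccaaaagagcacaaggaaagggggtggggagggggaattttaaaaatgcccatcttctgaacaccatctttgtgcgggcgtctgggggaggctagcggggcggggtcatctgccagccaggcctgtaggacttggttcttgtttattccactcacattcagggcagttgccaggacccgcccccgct
P2rx7 window 2, chr5:122650133-122650382: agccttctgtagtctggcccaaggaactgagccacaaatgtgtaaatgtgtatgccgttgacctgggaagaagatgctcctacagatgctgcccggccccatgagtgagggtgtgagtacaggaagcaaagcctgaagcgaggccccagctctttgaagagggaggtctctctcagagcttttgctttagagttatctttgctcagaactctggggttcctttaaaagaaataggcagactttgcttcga
The first Entpd1 window holds the CRE core 135 bases and the XRE core 18 bases before the start, and the second holds the CRE core 183 bases before it. The first P2rx7 window holds the AP-1 site 249 bases before the start. Such matches are frequent: of 32817 promoter windows of this length, 17.7% hold the CRE core, 28.1% the XRE core, 6.75% the AP-1 site, 7.01% the GAS motif and 1.55% the full CRE. Among the other members, Nt5e and Adora2b have an XRE core 138 and 42 bases before their starts, and Ada has a GAS motif 90 bases before its start. Adora2a has no entry in the promoter table.

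Nt5e encodes CD73, which takes the AMP made by CD39 on to adenosine. It had 7.74, 3.81, 5.42, 6.55 and 2.91 FPKM in WT replicates 1 to 5 and 4.19, 6.13, 6.48 and 8.84 FPKM in IL27ra KO replicates 1 to 4. The groups overlapped, with WT replicate 5 the lowest of all libraries and IL27ra KO replicate 4 the highest. The means were 5.29 ± 1.97 FPKM (SD, n = 5) against 6.41 ± 1.91 FPKM (SD, n = 4), and the log2 difference of 0.26 did not pass (SE 0.26, 95% interval -0.30 to 0.82; limma, adjusted p = 0.722). The interval does not reach the fall measured for Entpd1, the enzyme before it in the pathway.

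Because FPKM is per length, the 2 enzymes can be set side by side within a library. Entpd1 exceeded Nt5e in 4 of 5 WT libraries, with Entpd1 to Nt5e ratios of 0.987, 3.33, 2.28, 1.29 and 6.53 in replicates 1 to 5. In IL27ra KO replicates 1 to 4 the ratios were 1.12, 1.01, 0.853 and 0.535. WT replicate 5, with the highest ratio, had both the highest Entpd1 and the lowest Nt5e value of all libraries with the same genotype. The ratio of P2rx7 to Entpd1, the ATP receptor against the enzyme that removes its ligand, was 0.101 to 0.370 in WT and 1.03 to 2.06 in IL27ra KO, so P2rx7 was below Entpd1 in all 5 WT libraries and above it in all 4 IL27ra KO libraries. These ratios combine the values already given and carry no test of their own.

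Adora2a encodes the main adenosine receptor of T cells, which raises cyclic AMP. It had 6.84, 11.30, 8.33, 5.72 and 10.15 FPKM in WT replicates 1 to 5 and 4.29, 5.77, 5.43 and 11.93 FPKM in IL27ra KO replicates 1 to 4. IL27ra KO replicates 1 to 3 lay below 4 of 5 WT libraries, whereas IL27ra KO replicate 4 was the highest of the 9 libraries. The means were 8.47 ± 2.30 FPKM (SD, n = 5) against 6.86 ± 3.44 FPKM (SD, n = 4), and the log2 difference of -0.32 did not pass (SE 0.27, 95% interval -0.90 to 0.26; limma, adjusted p = 0.649). Without IL27ra KO replicate 4 the log2 difference was -0.59 and still did not pass (limma, adjusted p = 0.191). Scaling libraries to the same CD8 T cell identity level gave 0.28 (limma, adjusted p = 0.422), and the median of all genes moved to 0.60. Adora2a was 0.32 below that median against 0.35 below it without the scaling, a distance that scaling whole libraries leaves nearly unchanged by construction.

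Adora2b encodes a receptor of lower affinity for adenosine that is prominent in myeloid cells. It had 0.47, 0.24, 0.62, 0.46 and 0.26 FPKM in WT replicates 1 to 5 and 0.84, 0.95, 1.28 and 0.47 FPKM in IL27ra KO replicates 1 to 4. IL27ra KO replicates 1 to 3 were above every WT library, and IL27ra KO replicate 4 was within the WT range. The means were 0.410 ± 0.159 FPKM (SD, n = 5) against 0.885 ± 0.334 FPKM (SD, n = 4), with a log2 difference of 0.41 and a two-sided exact permutation p of 0.0476. The gene was too low for the test across genes; with no filter on low values it did not pass (limma, adjusted p = 0.314). By the depth estimate, the values rest on 10 fragments in all WT libraries and 21 in all IL27ra KO libraries, a rate 2.20 times as high with a 95% counting interval of 0.993 to 5.24, so a difference was not established at this depth. The other adenosine receptors were at or near 0: Adora1 was at 0 in all 9 libraries, and Adora3 averaged 0.272 FPKM in WT against 0.312 FPKM in IL27ra KO.

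Ada encodes adenosine deaminase, which turns adenosine into inosine. It had 2.03, 3.10, 1.34, 3.00 and 0.57 FPKM in WT replicates 1 to 5 and 1.98, 1.55, 2.54 and 1.52 FPKM in IL27ra KO replicates 1 to 4. All IL27ra KO values fell inside the WT range, which WT replicate 5 extended downward. The means were 2.01 ± 1.08 FPKM (SD, n = 5) against 1.90 ± 0.477 FPKM (SD, n = 4), with a log2 difference of 0.02 (SE 0.28, 95% interval -0.59 to 0.63; limma, adjusted p = 0.988). At the low level of Ada the interval leaves room for changes in either direction.

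The order of the members differed between the groups. In WT it ran from Entpd1 (12.03 FPKM) through Adora2a (8.47 FPKM), Nt5e (5.29 FPKM), P2rx7 (2.57 FPKM) and Ada (2.01 FPKM) to Adora2b (0.410 FPKM). Entpd1 was the highest member in 4 of 5 WT libraries and Nt5e in WT replicate 1. By mean and SD, the neighbours Entpd1 and Adora2a, Adora2a and Nt5e, and P2rx7 and Ada overlapped, whereas Nt5e and P2rx7, and Ada and Adora2b, did not. In IL27ra KO the order ran from P2rx7 (8.63 FPKM) through Adora2a (6.86 FPKM), Nt5e (6.41 FPKM), Entpd1 (5.29 FPKM) and Ada (1.90 FPKM) to Adora2b (0.885 FPKM). P2rx7 was highest in 3 of 4 IL27ra KO libraries and Adora2a in IL27ra KO replicate 4, and by mean and SD each of the 4 leading members overlapped with its neighbours among them, though P2rx7 and Entpd1 at the ends did not. Ada and Adora2b were the lowest 2 by group mean in both groups.

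Around these 6 genes, 78 further genes of the same pathway were found in the table, of which 47 passed the filter. Of the 47, 2 were higher in IL27ra KO (P2ry6 and Pnp), 0 were lower and 45 did not pass (limma; 9 had an unadjusted p under 0.05), a share called near the 4.24% of all genes tested. Their median log2 difference was 0.02. With the members included, 52 genes were tested, 3 were higher, 1 was lower, the median was 0.02, and the groups did not overlap for 6, beside 4.24% called and 6.73% not overlapping among all genes tested. Scaling libraries to the same CD8 T cell identity level lifted genes in general, with 1133 of 10550 genes higher, 49 lower and the median of all genes at 0.60; under it 9 of 56 tested pathway genes were higher and 0 lower.

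**Figure D3:**
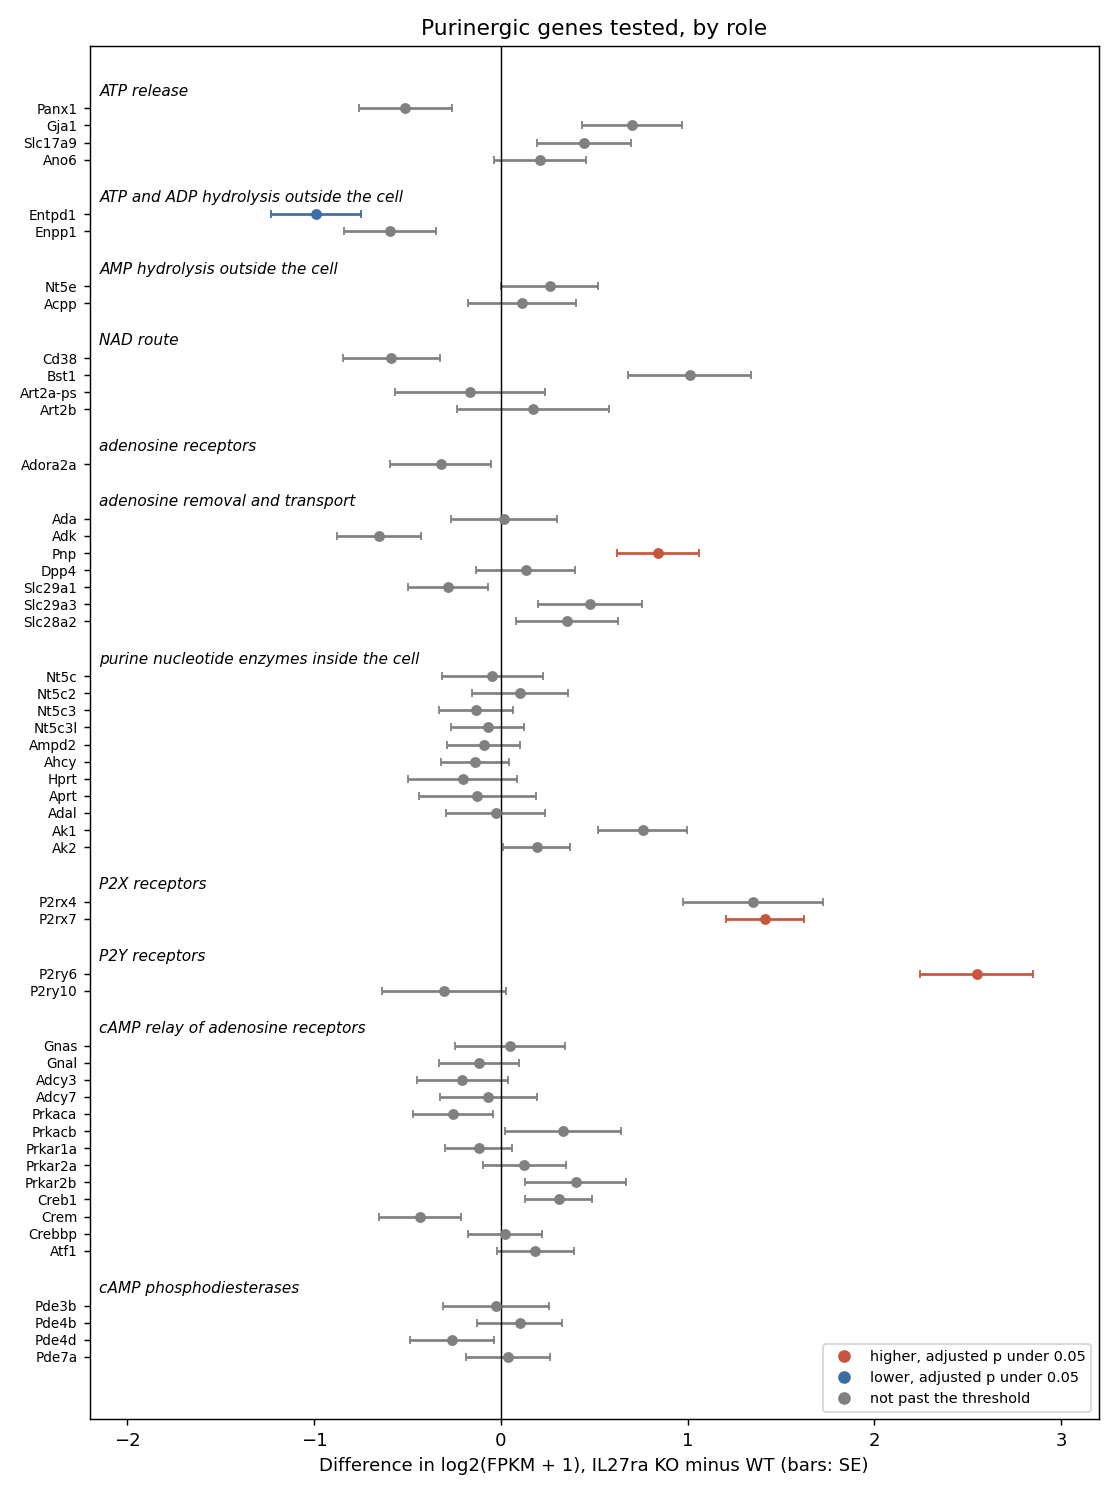
Difference in log2 level, IL27ra KO minus WT, for each tested gene of the pathway grouped by role, with bars of 1 SE. Entpd1, in blue, was lower and P2rx7, P2ry6 and Pnp, in red, were higher (adjusted p under 0.05), and the genes in grey did not pass.

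The other ATP and nucleotide receptors were led by P2ry6 and P2rx4. P2ry6 encodes a receptor for UDP, found on macrophages. It had 0.00, 0.69, 0.89, 1.33 and 0.25 FPKM in WT replicates 1 to 5 and 10.40, 6.26, 13.13 and 4.95 FPKM in IL27ra KO replicates 1 to 4. The groups were far apart, at 0.632 ± 0.525 FPKM (SD, n = 5) against 8.69 ± 3.77 FPKM (SD, n = 4), and P2ry6 rose by 2.55 on the log2 scale (SE 0.30; limma, adjusted p = 0.00058). P2rx4, an ATP-gated channel related to P2X7 that is encoded beside P2rx7 in the genome, had 6.95, 3.54, 1.15, 6.20 and 4.38 FPKM in WT replicates 1 to 5 and 16.63, 11.75, 16.18 and 5.63 FPKM in IL27ra KO replicates 1 to 4. IL27ra KO replicate 4 was within the WT range, and the log2 difference of 1.35 did not pass (SE 0.38; limma, adjusted p = 0.0646). Nor did P2rx4 pass in 8 of 12 other settings or in 8 of 9 fits without 1 library (limma, adjusted p up to 0.999 and 0.224). It passed without IL27ra KO replicate 4 (log2 difference 1.66, limma, adjusted p = 0.0167), with a pseudocount of 5 (0.88, limma, adjusted p = 0.0463) and with library quality weights (1.43, limma, adjusted p = 0.0105). It also passed with the same total FPKM (1.62, limma, adjusted p = 0.0225) and the same CD8 T cell identity level (1.96, limma, adjusted p = 0.0069). These scalings moved the median of all genes to 0.29 and 0.60. Relative to the median P2rx4 stood at 1.33 and 1.36 against 1.33 without them, a distance that scaling whole libraries leaves nearly unchanged by construction. P2ry10, a lymphocyte receptor for lipids and by far the most abundant of this group, had 63.2 ± 24.8 FPKM in WT (SD, n = 5) against 47.4 ± 10.5 FPKM in IL27ra KO (SD, n = 4) and did not pass (log2 difference -0.30, limma, adjusted p = 0.752). P2rx2 and P2rx6 were at 0 in all 9 libraries.

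Among enzymes upstream of adenosine, no gene but Entpd1 passed. Enpp1, which cuts ATP to AMP, had 2.49 ± 1.10 FPKM in WT against 1.26 ± 0.379 FPKM in IL27ra KO (SD, n = 5 and 4; log2 difference -0.59, limma, adjusted p = 0.261). Cd38, which consumes NAD and can feed adenosine by another route, had 7.85 ± 3.60 and 4.69 ± 1.12 FPKM (SD, n = 5 and 4; log2 difference -0.59, limma, adjusted p = 0.299). The groups did not overlap for Cd38, with a lowest WT value of 5.71 FPKM and a highest IL27ra KO value of 5.50 FPKM (two-sided exact permutation p = 0.0159). Art2b, which modifies P2X7 on mouse T cells using NAD, had 1.77 ± 1.60 and 1.90 ± 1.30 FPKM (SD, n = 5 and 4), and its close copy Art2a makes its separate value uncertain. Acpp, another enzyme that can release adenosine from AMP, had means of 2.86 and 2.89 FPKM. Of the 4 tested genes of ATP release 0 passed: Panx1, a channel that lets ATP out, had 15.2 ± 2.72 and 10.9 ± 4.86 FPKM, and Ano6, a membrane scramblase, had 9.0 ± 3.29 and 10.045 ± 0.951 FPKM (SD, n = 5 and 4 for each).

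Of the 7 tested genes listed under adenosine removal and transport, Pnp alone passed. Pnp encodes purine nucleoside phosphorylase, which acts on the inosine that ADA makes. It had 5.29, 6.14, 5.05, 2.90 and 5.26 FPKM in WT replicates 1 to 5 and 11.36, 9.06, 10.97 and 6.85 FPKM in IL27ra KO replicates 1 to 4. The groups did not overlap, and Pnp rose by 0.84 on the log2 scale (SE 0.22; limma, adjusted p = 0.0473). Leaving out any 1 of 7 of the 9 libraries ended the call, with limma adjusted p up to 0.184, and the near-identical neighbour Pnp2 makes its level uncertain. Slc29a1, a nucleoside transporter, had 12.8 ± 4.14 and 9.99 ± 0.593 FPKM, and Dpp4, which encodes the surface protein CD26, had 9.15 ± 3.64 and 9.79 ± 2.61 FPKM (SD, n = 5 and 4 for each). Neither passed.

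Downstream of the adenosine receptors, 0 of 13 tested genes of the cyclic AMP relay and 0 of 4 tested phosphodiesterases passed (limma; 0 had an unadjusted p under 0.05). Gnas, the G protein subunit that couples Adora2a to adenylyl cyclase, had 85.2 ± 30.6 and 86.7 ± 26.5 FPKM. Prkar1a, the regulatory subunit of protein kinase A, had 76.0 ± 9.16 and 69.6 ± 3.26 FPKM. Pde4b and Pde3b, which break down cyclic AMP, had 21.1 ± 5.06 against 22.8 ± 5.87 FPKM and 12.4 ± 3.32 against 12.6 ± 6.49 FPKM (SD, n = 5 and 4 for each). Of 11 tested purine enzymes inside the cell 0 passed either (limma; 1 had an unadjusted p under 0.05), with Aprt and Hprt, which salvage adenine and other purine bases, at 45.6 ± 25.4 against 37.9 ± 6.26 FPKM and 43.4 ± 22.7 against 34.2 ± 1.28 FPKM.

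Markers of other cells moved with the groups, and in bulk RNA fewer cells of a type and less RNA per cell cannot be told apart. Of 20 tested macrophage and monocyte markers 19 were higher in IL27ra KO and 0 lower, and their summed level was 35.97 to 213.12 FPKM in WT against 395.09 to 1183.1 FPKM in IL27ra KO. Of 6 tested dendritic cell markers 5 (Itgax, Cd209a, Cd74, H2-Ab1 and H2-Aa) were higher. The whole list had summed levels of 19.46 to 433.61 and 374.41 to 1755.44 FPKM, led by Cd74, H2-Ab1 and H2-Aa. Zbtb46 did not pass, with a mean of 1.38 FPKM in WT against 1.02 FPKM in IL27ra KO. Flt3, Xcr1, Clec9a, Batf3 and Siglech were below the filter. Among these, Batf3 was higher in every IL27ra KO library than in any WT library, while the others overlapped. Of 14 tested CD8 T cell identity genes 2 (Cd8a and Cd3e) were lower and 0 higher, with a summed level of 1132.82 to 1767.36 FPKM in WT against 528.32 to 1395.2 FPKM in IL27ra KO. Regulatory CD4+ T cells also carry CD39. Of their defining genes, Cd4 was at most 0.45 FPKM and Foxp3 was 0 to 5.53 FPKM in WT against 0.52 to 1.07 FPKM in IL27ra KO. Of the 6 tested genes of that list 4 (Ctla4, Ikzf2, Ccr8 and Tnfrsf18) were lower, while Foxp3 and Il2ra did not pass (limma, adjusted p = 0.369 and 0.110). Ctla4 is counted again among the exhaustion genes below, and which cells carried these 4 genes was not tested. Of tested markers of B cells (1), NK cells (4), neutrophils (2), endothelial cells (2) and melanoma (7), 0 passed. No fibroblast marker reached the filter, and Ms4a1 of B cells was at 0 in every library. The melanoma list was abundant, at a summed 354.45 to 1162.05 FPKM in WT against 541.47 to 1274.06 FPKM in IL27ra KO, and all 7 differences were above 0. The mean log2 levels of the endothelial and B cell lists were low but higher in IL27ra KO (exact permutation p = 0.0159 and 0.0476). For the melanoma, neutrophil and NK cell lists the exact permutation p was 0.159, 0.127 and 0.635. For the whole marker lists, their part in the differences of Entpd1, P2rx7, P2ry6 and Pnp was not tested beyond the values that follow.

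The macrophage and CD8 identity lists can be set beside P2rx7 and Entpd1 library by library. The mean log2(FPKM + 1) of the macrophage list was 0.882, 2.20, 1.05, 1.68 and 2.11 in WT replicates 1 to 5 and 4.34, 4.19, 4.65 and 3.29 in IL27ra KO replicates 1 to 4. Both P2rx7 and the macrophage list were higher in every IL27ra KO library than in any WT library. Within WT, P2rx7 was lowest in replicates 5 and 2, which had the higher macrophage levels, and highest in replicate 3, which had a low one; within IL27ra KO the highest P2rx7 value and the highest macrophage level were both in replicate 3. Entpd1 was lower in IL27ra KO, where the macrophage list was higher. The CD8 identity list was at 6.14, 6.66, 6.16, 6.07 and 6.39 in WT replicates 1 to 5 and at 5.07, 5.55, 5.36 and 6.40 in IL27ra KO replicates 1 to 4. IL27ra KO replicate 4 thus had a CD8 identity level above 4 of 5 WT libraries, and in that library Entpd1 was 4.73 FPKM and P2rx7 7.01 FPKM, both outside the WT range. Its macrophage level of 3.29 was also above that of every WT library, and the part of either level in this 1 library was not tested. With the macrophage level as a covariate 0 genes passed in the whole table (limma; 982 had an unadjusted p under 0.05). In that fit Entpd1 was at -1.86 (SE 0.58; limma, adjusted p = 0.369), P2rx7 at 1.48 (SE 0.56; limma, adjusted p = 0.445), P2ry6 at 1.36 (limma, adjusted p = 0.571) and P2rx4 at 0.00 (limma, adjusted p = 0.999). The macrophage level did not overlap between the groups, so in that fit genotype and macrophage level cannot be told apart.

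**Figure D4:**
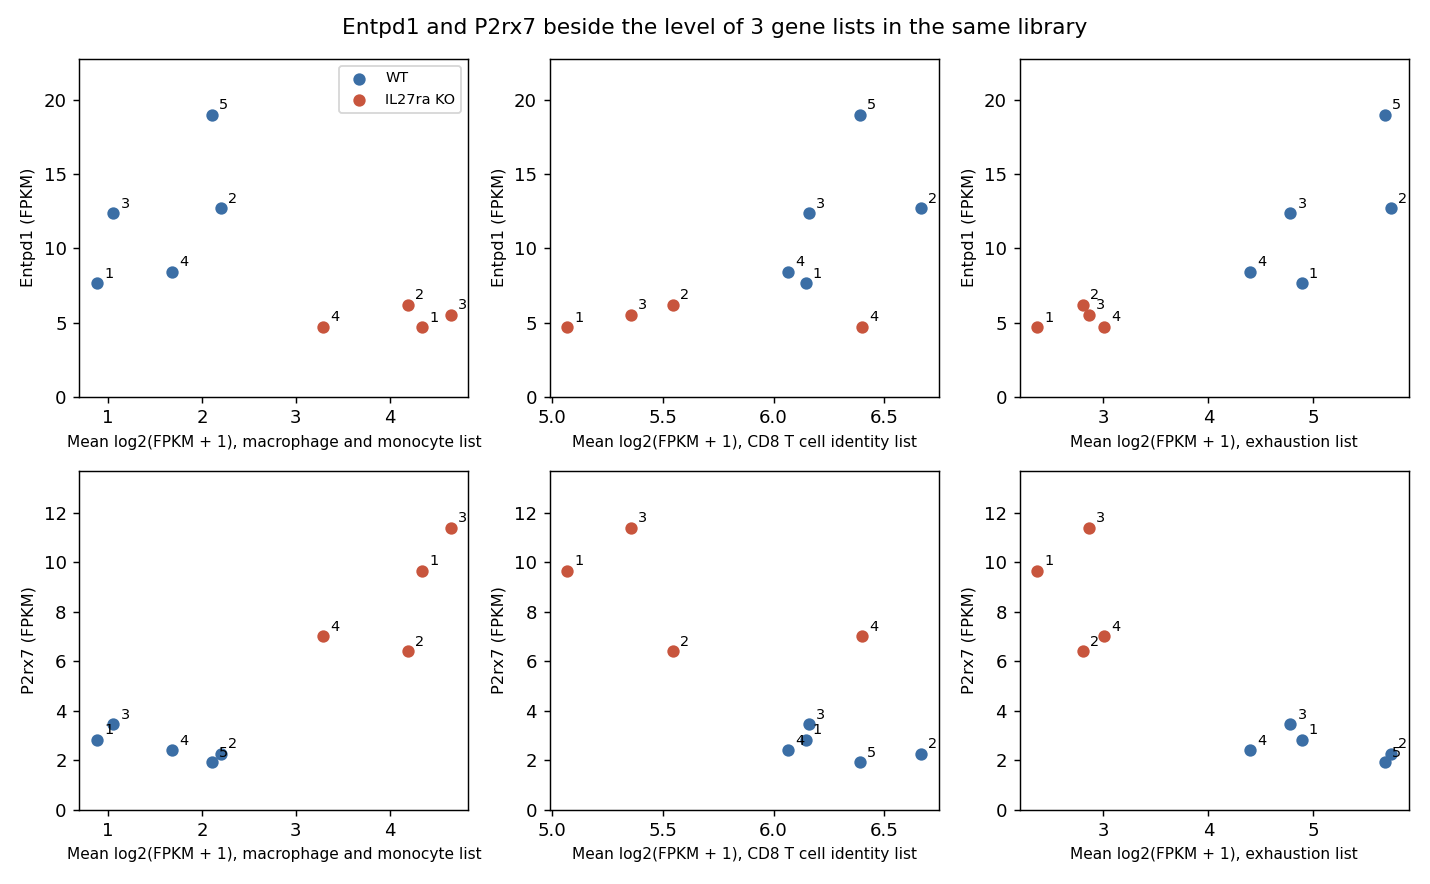
FPKM of Entpd1 (upper row) and P2rx7 (lower row), both from 0, against the mean log2(FPKM + 1) of the macrophage and monocyte, CD8 T cell identity and exhaustion lists in the same library, with 1 numbered point per library. IL27ra KO replicate 4 has a CD8 identity level of 6.40, inside the WT range, and a macrophage level of 3.29, above every WT library, with Entpd1 at 4.73 FPKM and P2rx7 at 7.01 FPKM.

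CD39 is known to mark exhausted T cells, so Entpd1 was set beside 9 genes of that state (Pdcd1, Havcr2, Lag3, Tigit, Ctla4, Tox, Tnfrsf9, Cd244 and Prdm1). All 9 of the tested genes were lower in IL27ra KO with no overlap between the groups, with a median log2 difference of -2.41 beside -0.99 for Entpd1. This list was drawn up with results of these libraries known, so its direction is not independent evidence. Its mean log2 level was 4.89, 5.74, 4.78, 4.39 and 5.68 in WT replicates 1 to 5 and 2.37, 2.80, 2.86 and 3.00 in IL27ra KO replicates 1 to 4. The WT libraries with the highest levels of the list, replicates 2 and 5, also had the highest Entpd1 values. WT replicate 3 had nearly as much Entpd1 as replicate 2 (12.37 against 12.70 FPKM), but its list level was below that of replicate 1, which had the lowest WT value of Entpd1 (7.64 FPKM). Within IL27ra KO the highest list level, in replicate 4, went with one of the lowest Entpd1 values.

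The genes whose pattern over the 9 libraries was most like that of each member were found by the root mean square difference in centred log2 level, among 5722 genes of at least 5 FPKM. For Entpd1, whose own root mean square deviation was 0.60, these were Ubash3b, Nsmaf and Stat3, at distances of 0.23, 0.24 and 0.25. Stat3, a transcription factor that acts downstream of the interleukin 27 receptor, averaged 60.4 ± 15.2 FPKM in WT (SD, n = 5) against 27.2 ± 2.74 FPKM in IL27ra KO (SD, n = 4; log2 difference -1.09, limma, adjusted p = 0.0116). For P2rx7, with a deviation of 0.75, they were Prkcd, a protein kinase C, Psap, the precursor of lysosomal saposins, and the AP-1 subunit Fos, at 0.23, 0.25 and 0.27. Psap averaged 78.3 ± 9.31 FPKM in WT (SD, n = 5) against 218 ± 29.5 FPKM in IL27ra KO (SD, n = 4; log2 difference 1.46, limma, adjusted p = 0.0011). The nearest genes to Nt5e were Foxp1, Fosl2 and Cacfd1 (0.15 to 0.17, against a deviation of 0.41). Those nearest to Adora2a were Lck, Rac2 and Sept1 (each 0.15, against 0.43), and those nearest to Ada were Malsu1, Mettl5 and Ppap2c (0.18 to 0.19, against 0.41). The likeness is over 9 libraries that share the same group difference, and it is given as a description with no test.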

How the data were processed

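Gene expression was measured in 9 bulk libraries of tumour CD8+ T cells, 5 WT and 4 IL27ra KO, and the genotype label set the group. Per the labels, 5 uL of lysate entered RNA cleanup and libraries followed an adaptation of SMART-Seq 2, without molecular identifiers. PCR copies of a molecule are therefore not told apart. The limma intervals rest on the spread over libraries, and the counting interval of Adora2b covers counting error only. Per the labels, the deposited values are FPKM from RSEM that the authors normalized with TMM, a scaling by trimmed gene ratios. TopHat, RSEM, DESeq and mm9 stand in the submitters' processing notes, with no versions or roles. RSEM shares reads among near-identical genes, and TMM lets a change in cell makeup move all genes. The table has 0 columns of other samples.

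From these values log2(FPKM + 1) was computed for genes that averaged 1 FPKM or more. The genotypes were compared in R 4.3.3 with limma 3.58.1, with a trend, over 10374 genes, p-values adjusted by Benjamini-Hochberg and called under 0.05. Single values were compared by a two-sided exact permutation test over 126 splits, whose smallest p is 0.0159. The fit was tested on simulated data. FPKM hold no counts, so depth was estimated from the spacing of low values of 2879 single-transcript genes with GENCODE M21 lengths, a build other than mm9: 66.2% to 71.9% of low values were no more than 0.1 from a whole multiple of 1 fragment, against 20% for evenly spread values. Promoter windows came from RefSeq (GRCm38.p6) by gene symbol, for 5 of the 6 members.

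Named genes are the members, genes of the pathway that passed, the 2 highest of each pathway list by mean, and the 3 genes most like each member. Genes and values outside that rule, such as Adora1, Adora3, P2rx2, P2rx6, the marker genes and those under Other observations, were chosen after their values were seen. The members and lists were themselves chosen with earlier results of these data known. Alternatives tried were a pseudocount of 0.1 or 5, a filter at 5 FPKM or none, quantile normalization, scalings to the same total FPKM (with and without Rn45s, the ribosomal RNA precursor) and to the same CD8 T cell identity level, a robust fit, quality weights, a replicate block, the macrophage level as a covariate, and each library left out in turn.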

Additional observations from a re-analysis of the deposited data

Results flagged for a closer look

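In 80 groups of 4 or 5 libraries, formed by the genes named here, 5 groups held a library far from the rest, where chance gives about 1 in 20 groups. Cd38 was 14.18 FPKM in WT replicate 5, where the nearest WT library had 7.4 FPKM. Pde4b was 29.94 FPKM in WT replicate 4, with the nearest at 20.19 FPKM. The other 3 values were all in IL27ra KO replicate 4: Art2b was 3.84 FPKM (nearest 1.35 FPKM), Pde3b was 22.38 FPKM (nearest 9.52 FPKM) and Rac2 was 166.63 FPKM (nearest 81.94 FPKM). In that library the CD8 T cell identity level was also the highest of the IL27ra KO group and the macrophage level the lowest, and the part of either in these values was not tested.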

How the results depend on the processing

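Log2 differences are given, with p-values from limma. Entpd1 kept its direction under all 21 alternatives but did not pass with no filter (-0.99, limma, adjusted p = 0.0702), the same total FPKM (-0.70, adjusted p = 0.173), the same total without Rn45s (-0.93, adjusted p = 0.0638), the same CD8 T cell identity level (-0.37, adjusted p = 0.353), the replicate block (-0.82, adjusted p = 0.0917) or the macrophage covariate (-1.86, adjusted p = 0.369), and ran from -1.12 to -0.82 with each library left out. P2rx7 was no longer called only with the macrophage covariate (1.48, limma, adjusted p = 0.445; 1.28 to 1.53 with each library left out), and Nt5e was positive and not called in all 21. Adora2a changed sign with the CD8 level (0.28) and the covariate (0.067), and ran from -0.59 to -0.16 with each library left out. Ada changed sign with a pseudocount of 5 (-0.011), quantile normalization (-0.10), the robust fit (-0.044), the block (-0.19) and the covariate (-0.32), and ran from -0.19 to 0.15 without single libraries. Adora2b stayed positive (0.31 to 0.52 with each library left out) but lost its exact permutation p under 0.05 in 8 of those 9, with quantile normalization (0.32), without Rn45s (0.42) and with the CD8 level (0.72), and under limma with no filter (0.41); it could not be fitted in the robust, weighted, block and covariate fits or at 5 FPKM, nor Ada at 5 FPKM. Il27ra changed sign with the covariate (0.72). Against 440 genes called (325 higher, 115 lower), the count was 219 with the filter at 5 FPKM, 1182 with the CD8 level (1133 higher, 49 lower), 1076 with the robust fit (678 higher, 398 lower), 974 with quality weights, 273 with the replicate block and 0 with the covariate (982 at unadjusted p under 0.05), and 227 to 639 with each library left out; the same total gave 544 higher and 65 lower. Against 4 pathway genes called, it was 2 with no filter, 2 with the filter at 5 FPKM, 9 with the CD8 level, 8 with the robust fit, 8 with weights, 2 with the replicate block and 0 with the covariate (12 at unadjusted p under 0.05), and 2 to 6 with each library left out. The same total moved the median of all genes to 0.29 and the CD8 level moved it to 0.60, from 0.02. Replicate numbers did not pair the libraries: deviations of same-numbered libraries correlated at 0.003, -0.008, -0.066 and -0.147, and the block drops WT replicate 5, which has no partner. Depth limits Ada and Adora2b most. The causes of these changes were not tested.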

Other observations

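Some genes of the pathway outside the rule for named genes had higher or lower values in IL27ra KO without passing the test or the filter. They are named after their values were seen, and most of those picked were higher. Of all 47 tested pathway genes beyond the members, 24 differences were above 0 and 23 below 0. Adk, adenosine kinase, was lower, at 8.67 ± 2.51 FPKM in WT (SD, n = 5) against 5.05 ± 1.09 FPKM in IL27ra KO (SD, n = 4). Its groups overlapped (log2 difference -0.65, limma, adjusted p = 0.156). Ak1, an adenylate kinase, averaged 0.746 ± 0.166 FPKM in WT (SD, n = 5) against 2.06 ± 0.982 FPKM in IL27ra KO (SD, n = 4), with no overlap between the groups (log2 difference 0.76, limma, adjusted p = 0.108). Bst1 (CD157), a relative of CD38, averaged 0.462 ± 0.338 and 2.14 ± 1.29 FPKM, with IL27ra KO replicate 4 inside the WT range (log2 difference 1.01, limma, adjusted p = 0.121). P2ry12, an ADP receptor known from platelets and microglia, was at most 0.38 FPKM in WT and at least 0.49 FPKM in IL27ra KO, and Ampd3, an AMP deaminase, at most 0.77 FPKM in WT and at least 0.83 FPKM in IL27ra KO; both were below the filter.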
